A study of Mus musculus with 10 samples.

Results

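The 38 genes described here encode enzymes, carriers and regulators of fatty acid oxidation in mitochondria and peroxisomes, with Bdh1 as the ketogenic step among them. They were taken by name, and all 38 had at least 1 probe named through its transcript accession, 50 probes in all. Every member was well above background on all 10 arrays and entered the tests, as 38 of 15089 genes. Each gene was assigned to 1 compartment only, even if its protein may act in more. By this assignment 19 were mitochondrial, 15 peroxisomal and 1 ketogenic, and 3 were placed apart (Acsl1, Acot1 and Creb3l3). Liver RNA was measured in HFD ethanol mice and in HFD control mice, 5 each, with 1 mouse and 1 single-colour Agilent array per sample. All were adult male C57BL/6J mice, an inbred strain that becomes obese on fat-rich food, bought at 7 weeks of age and kept for 1 week before the study. All were fed a diet labelled 60% HFD for 4 months. The HFD ethanol mice drank ethanol in their water for the last 3 of these months, at 5 g/kg per day in the first week and 10 g/kg per day after it. The HFD control mice had the diet without ethanol, so each comparison is of ethanol within the diet, and mice on ordinary chow were not analysed here. Of 10 mice housed per group, 5 were chosen at random for arrays.

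Long-chain fatty acids are first joined to coenzyme A. The carnitine shuttle then takes them into mitochondria, where each turn of a 4-step spiral removes a 2-carbon unit and electron transfer flavoprotein passes electrons on to the respiratory chain. Peroxisomes take in very-long-chain, branched and dicarboxylic acyl-CoAs through ABC transporters, shorten them with their own set of enzymes and export the products, while thioesterases release free acids from acyl-CoA. In the fasted or fat-fed liver much of the resulting acetyl-CoA goes into ketone bodies, and many of these genes are textbook targets of the nuclear receptor PPARalpha.

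Signals are on a log2 scale, each array having been divided by its own 75th percentile, so that 1 unit is a 2-fold difference, and a log2 fold change is the HFD ethanol mean minus the HFD control mean with limma's moderated standard error (SE). A level was never set against that of another gene, since probes differ in brightness. Between 55.5% and 59.1% of the spots on an array passed as well above background. The 75th percentile lay between 277.0 and 383.3 signal units. The arrays lay on 3 slides, and the groups were not balanced over them. Slide 3 held HFD ethanol replicates 1, 2, 3 and 5 with HFD control replicate 2, slide 1 held HFD ethanol replicate 4 with HFD control replicates 4 and 5, and slide 2 held HFD control replicates 1 and 3 only. Of all genes tested, 3 passed an adjusted p under 0.05 (0.0199%), and none of them is a member. They were Hsbp1l1 and Cabp2, both higher in HFD ethanol mice, and Adgrv1, lower in HFD ethanol mice, named here after their values were seen. The 6 hepatocyte markers were all well measured, with a summed level of 3200 to 3530 times the array's 75th percentile in HFD ethanol livers and 2880 to 3920 times in HFD control livers. In whole liver, fewer cells of a type and less RNA per cell cannot be told apart.

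No fatty acid oxidation gene passed the test between HFD ethanol and HFD control livers. None was called higher, against 0.0133% of all genes, and none lower, against 0.00663%. The smallest adjusted p among the 38 was 0.259 (Acads, limma with Benjamini-Hochberg adjustment over all genes). At an unadjusted p under 0.05, 4 members were higher (Acads, Acot8, Abcd3 and Eci1), which is 10.5% of the members against 8.12% of all genes, and 0 were lower, against 5.22% of all genes. No member had groups that did not overlap, against 3.05% of all genes (1.97% higher and 1.07% lower). The differences were small. Log2 fold changes lay within 0.3 of 0 for 34 members, and for the same number the 95% confidence interval left out a 2-fold difference in either direction. The exceptions to both were Acot1, Acot3, Acot4 and Abcd2, whose intervals were wide.

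**Figure D1:**
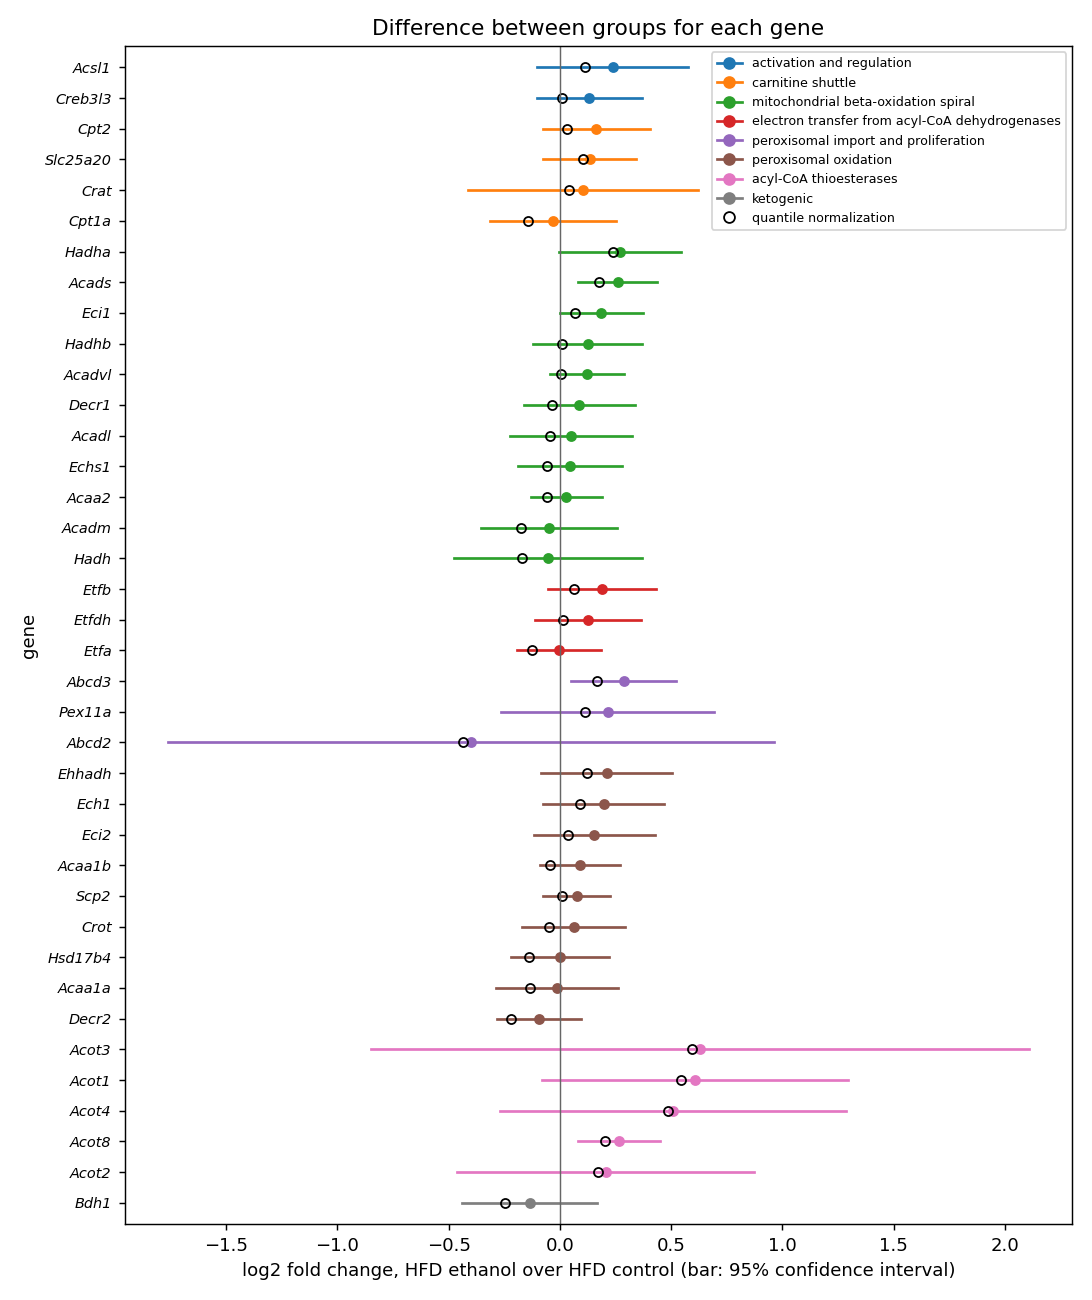
Log2 fold change of each of the 38 genes, HFD ethanol over HFD control, on the x axis, with genes in rows by role. Filled points and bars are the estimate and its 95% confidence interval with 75th percentile scaling, and open circles are the estimates with quantile normalization. The bars of Acads, Acot8, Abcd3 and Eci1 lie above 0, and those of Acot1, Acot3, Acot4 and Abcd2 are the widest.

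The mean was higher in HFD ethanol livers for 30 of the 38 members (78.9%, against 56.8% of all genes), with a median log2 fold change of 0.12 against 0.03 over all genes. With quantile normalization 23 of 38 were higher, with a median of 0.01 against -0.01 over all genes. Bright genes as a whole showed the same tilt. Of the 1016 genes with a mean log2 signal of 5 or more, 76.2% were higher with 75th percentile scaling and 43.3% with quantile normalization. The 26 members in that range were higher in 19 cases (13 with quantile normalization), and their median log2 fold change was 0.09, the same to 2 decimals as that of all genes there. With quantile normalization that median was -0.01 for the members and -0.02 for all genes of the range. The members of intermediate signal differed more from the genes around them. The 5 members with a mean log2 signal between 1 and 3 had a median of 0.27 against 0.02 over all genes there, and the 6 members between 3 and 5 had 0.23 against 0.06. With quantile normalization those medians were 0.24 and 0.15. All thioesterase genes of the members fell in these ranges, with Acot2, Acot3 and Acot4 among the 5 and Acot1 and Acot8 among the 6. The thioesterases had log2 fold changes of 0.21 to 0.63. The other members there had 0.27 (Hadha) and 0.13 (Slc25a20) among the 5. Among the 6 they had 0.26 (Acads), 0.21 (Ehhadh), 0.10 (Crat) and 0.05 (Acadl). The parts of signal range and gene family were not tested. These ranges of signal were chosen after the data were seen.

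**Figure D2:**
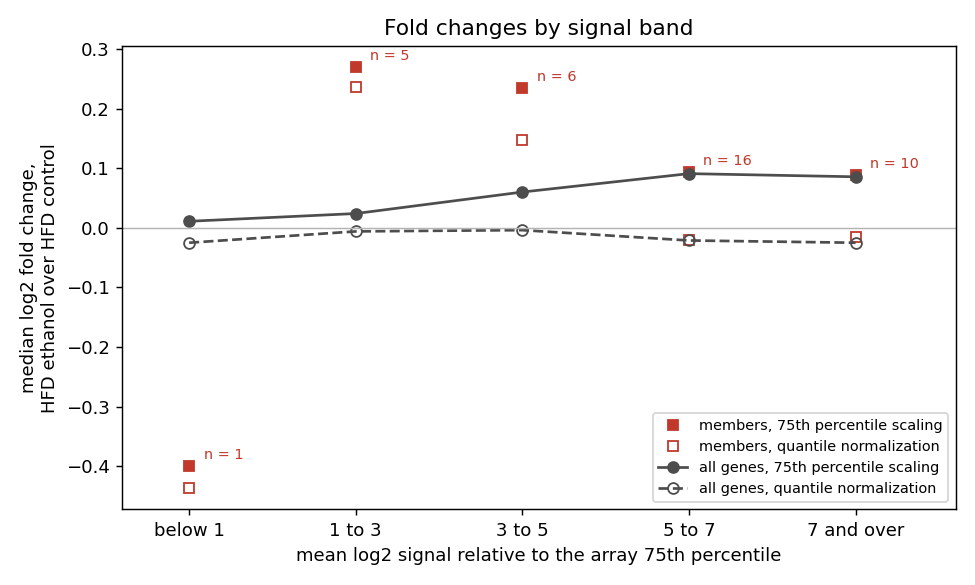
Median log2 fold change, HFD ethanol over HFD control, on the y axis, by range of mean log2 signal on the x axis, for the members (squares) and all genes tested (circles), with 75th percentile scaling (filled) and quantile normalization (open). At a signal of 5 and over the squares lie on or near the circles under both scalings.

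The members' median was 0.11 with slides as blocks, 0.20 on slide 1 alone and 0.02 on slide 3 alone, with 28, 36 and 21 members higher, and 1 member, 2 members and 1 member at an unadjusted p under 0.05. Slide 1 holds 1 HFD ethanol array and slide 3 holds 1 HFD control array, so the values on single slides also differ in which mice they rest on. Without HFD ethanol replicate 3 the median was 0.18, 36 members were higher and 12 stood at an unadjusted p under 0.05. That count was 2 without HFD ethanol replicate 1 and also 2 without HFD control replicate 1, and 0 members passed the threshold in any of these fits.

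**Figure D3:**
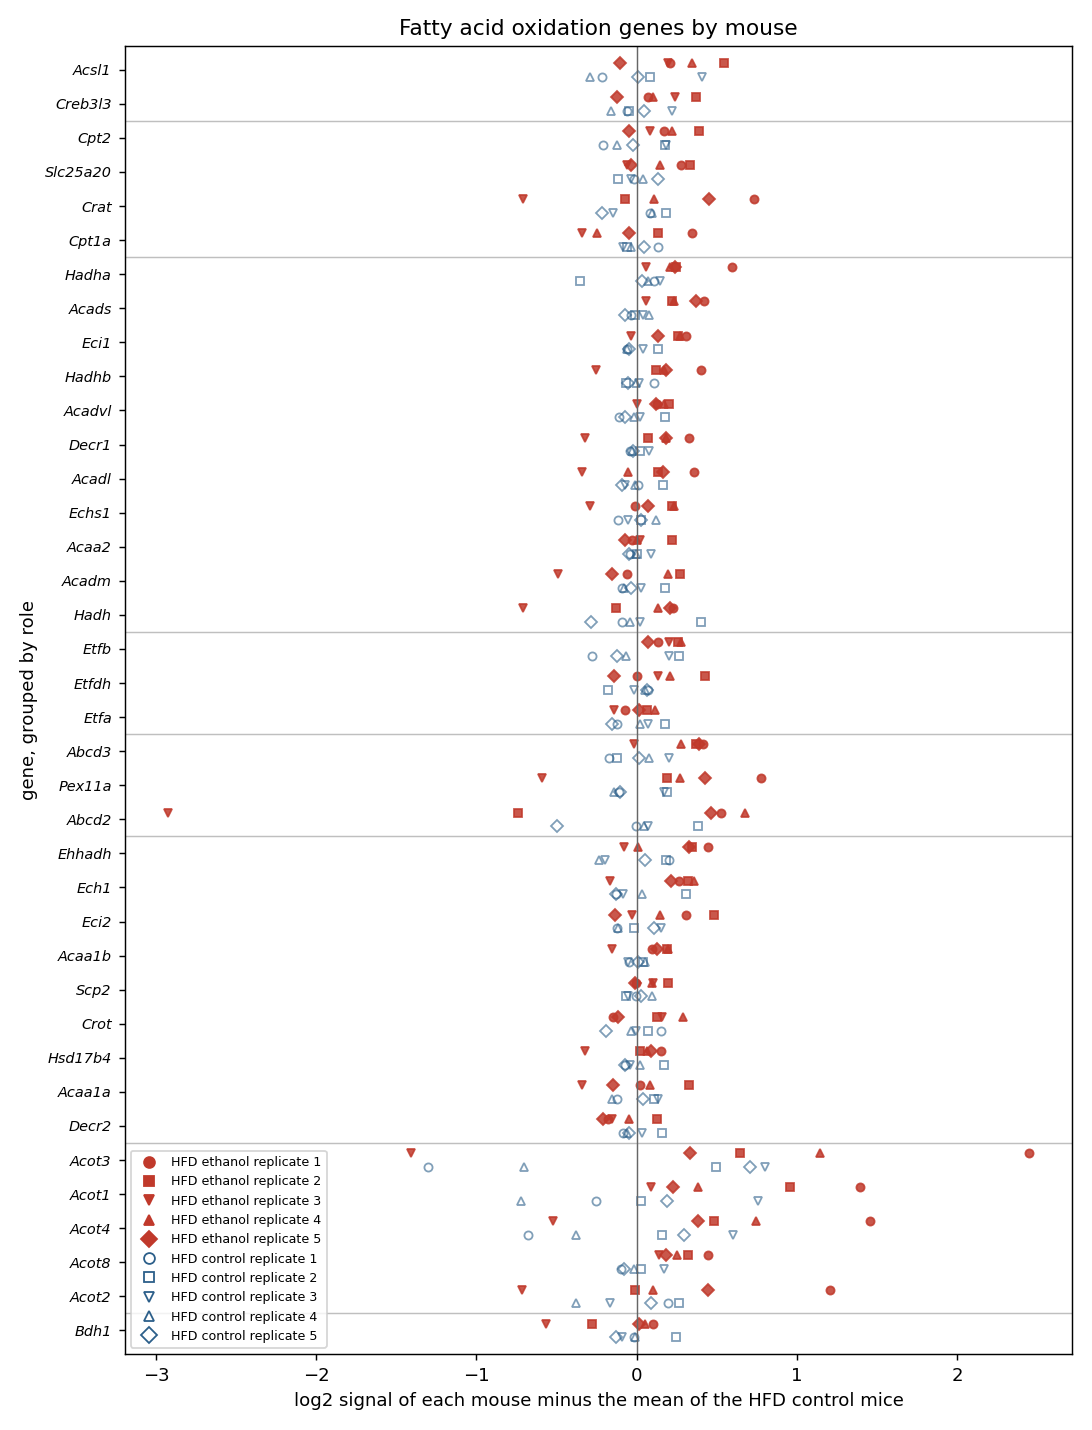
Log2 signal of each gene in each mouse minus the mean of the HFD control mice, on the x axis, with genes in rows by role. Red filled symbols are the 5 HFD ethanol mice and blue open symbols the 5 HFD control mice, with 1 symbol shape per replicate number. The red triangle that points down, HFD ethanol replicate 3, is the leftmost HFD ethanol symbol for 28 of the 38 genes.

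Fatty acid activation and its control came first in the pathway. Acsl1, the main long-chain acyl-CoA synthetase of liver, had log2 signals of 7.56, 7.90, 7.55, 7.70 and 7.25 in HFD ethanol replicates 1 to 5, against 7.14, 7.44, 7.76, 7.06 and 7.36 in HFD control replicates 1 to 5. The groups overlapped across most of their range, since HFD ethanol replicate 5 was below 3 controls and HFD control replicate 3 was above 4 ethanol mice. Its log2 fold change was 0.24 ± 0.15 (SE) (limma adjusted p = 0.497) at the probe used and 0.41 at its other probe. Creb3l3 encodes a liver membrane-bound transcription factor that works with PPARalpha on fasting genes. It had 6.50, 6.79, 6.67, 6.52 and 6.30 in HFD ethanol mice, against 6.36, 6.38, 6.64, 6.26 and 6.47 in HFD control mice. The ethanol values spanned those of all controls but 1, with a log2 fold change of 0.13 ± 0.11 (SE) (limma adjusted p = 0.585).

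Of the 4 carnitine shuttle genes, 3 had a positive log2 fold change (median 0.12) and none passed. Cpt1a encodes the outer-membrane carnitine palmitoyltransferase that controls entry of long-chain acyl groups. It had 6.16, 5.95, 5.47, 5.57 and 5.77 in HFD ethanol mice, against 5.95, 5.76, 5.73, 5.78 and 5.86 in HFD control mice. The controls lay close together inside the ethanol range, and the log2 fold change was -0.03 ± 0.13 (SE), with a 95% confidence interval of -0.31 to 0.25. The sign of this value turned with the slide column as a covariate and on slide 3 alone. Cpt2, the inner-membrane enzyme that gives the acyl-CoA back, had 6.39, 6.61, 6.30, 6.44 and 6.17 in HFD ethanol mice, against 6.01, 6.39, 6.40, 6.10 and 6.19 in HFD control mice. HFD ethanol replicate 5 stood below 3 controls, and the log2 fold change was 0.16 ± 0.11 (SE) (limma adjusted p = 0.504). The second probe of Cpt2, which was much dimmer, had 0.43. Slc25a20, the carnitine-acylcarnitine carrier between these enzymes, had a log2 fold change of 0.13 ± 0.10 (SE), with 3 of 5 ethanol mice above every control. Crat, which exchanges acyl groups between carnitine and coenzyme A, had 0.10 ± 0.23 (SE), and its second probe had -0.08, so the direction depended on the probe.

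The RefSeq promoter table for GRCm38.p6, which holds 250 bases before and 50 bases after each gene start, listed 33 of the 38 members with 38 starts. It was searched on both strands for 2 copies of AGGTCA in a row with 1 free base between them, the direct repeat that PPARalpha and its partner RXR bind, with up to 2 mismatches in the 12 fixed letters. A match was found in 5 member promoters (13.2%), those of Acot4, Slc25a20, Creb3l3, Echs1 and Etfa, against 1268 of 32851 promoters in the table (3.86%). A match is a run of letters, not a bound site, and the count of 5 is small. Below are 3 of these promoters, chosen because the genes stand at a thioesterase, a carrier and a regulator described here, each 5′ to 3′ along its own gene with the match in capitals. The Acot4 window is chr12:84038129-84038428 on the plus strand, with the match from 13 bases to 1 base before the start. The Slc25a20 window is chr9:108661886-108662185 on the plus strand, with the match from 6 to 18 bases after the start. The Creb3l3 window is chr10:81092542-81092841 on the minus strand, and belongs to 1 of the starts listed for that gene.
Acot4: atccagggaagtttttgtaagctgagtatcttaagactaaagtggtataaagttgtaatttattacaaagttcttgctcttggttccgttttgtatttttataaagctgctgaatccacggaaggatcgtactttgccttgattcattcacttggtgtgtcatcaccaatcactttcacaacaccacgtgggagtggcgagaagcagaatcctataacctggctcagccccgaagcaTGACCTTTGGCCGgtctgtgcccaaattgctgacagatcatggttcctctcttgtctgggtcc
Slc25a20: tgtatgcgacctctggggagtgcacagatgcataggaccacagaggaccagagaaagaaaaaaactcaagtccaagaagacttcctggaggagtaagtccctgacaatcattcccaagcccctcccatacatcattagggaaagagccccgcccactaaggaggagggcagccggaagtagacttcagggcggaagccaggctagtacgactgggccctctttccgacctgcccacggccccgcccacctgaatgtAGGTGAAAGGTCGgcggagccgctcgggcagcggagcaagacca
Creb3l3: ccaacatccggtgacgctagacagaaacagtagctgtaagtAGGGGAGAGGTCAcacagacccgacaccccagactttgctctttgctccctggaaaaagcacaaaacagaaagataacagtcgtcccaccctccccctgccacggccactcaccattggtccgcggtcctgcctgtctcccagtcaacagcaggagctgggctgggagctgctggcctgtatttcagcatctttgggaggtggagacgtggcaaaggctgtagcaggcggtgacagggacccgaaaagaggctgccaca
The matches do not fall at a shared distance from the start. Neither the genes with a match nor those without passed the test, so no difference in expression stands beside these letters.

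Of the 11 genes of the mitochondrial spiral, 9 had a positive log2 fold change (median 0.09), 2 of them at an unadjusted p under 0.05, and none passed. The spiral opens with the acyl-CoA dehydrogenases, which divide substrates by chain length. Acads, the short-chain enzyme, had 4.92, 4.72, 4.56, 4.73 and 4.87 in HFD ethanol mice, against 4.47, 4.49, 4.54, 4.58 and 4.43 in HFD control mice. Of the ethanol mice 4 were above every control, and replicate 3 was just under the highest control. The log2 fold change was 0.26 ± 0.08 (SE) (limma unadjusted p = 0.0084, adjusted p = 0.259). It was 0.17 with quantile normalization, 0.26 with slides as blocks, 0.23 on slide 1 alone and 0.28 on slide 3 alone. Acadvl, the very-long-chain enzyme bound to the inner membrane, had 7.34, 7.41, 7.21, 7.38 and 7.33 in HFD ethanol mice, against 7.10, 7.38, 7.23, 7.20 and 7.14 in HFD control mice. HFD control replicate 2 was at the level of the ethanol mice and the other controls were mostly lower. Its log2 fold change was 0.12 ± 0.08 (SE) (limma adjusted p = 0.479), and it was 0.0068 with quantile normalization and -0.06 on slide 3 alone.

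The medium-chain and long-chain dehydrogenases differed less. Acadm, the medium-chain enzyme, had 6.50, 6.83, 6.07, 6.75 and 6.41 in HFD ethanol mice, against 6.46, 6.74, 6.59, 6.48 and 6.52 in HFD control mice. The lowest of all 10 mice was HFD ethanol replicate 3 and the highest replicate 2, so that the controls fell inside the ethanol range. For Acadm the log2 fold change was -0.05 ± 0.14 (SE), with a 95% confidence interval of -0.35 to 0.26, and it was 0.06 without HFD ethanol replicate 3. Acadl, the long-chain enzyme, had 5.17, 4.94, 4.47, 4.76 and 4.97 in HFD ethanol mice, against 4.82, 4.98, 4.74, 4.80 and 4.72 in HFD control mice. Here too the ethanol mice held both the highest and the lowest value, and the log2 fold change was 0.05 ± 0.12 (SE), which was -0.05 with slides as blocks and -0.04 with quantile normalization.

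Hadha and Hadhb encode the alpha and beta subunits of the mitochondrial trifunctional protein, which carries out the later steps for long chains. Hadha had 2.34, 1.99, 1.80, 1.96 and 1.99 in HFD ethanol mice, against 1.85, 1.39, 1.89, 1.82 and 1.78 in HFD control mice. HFD control replicate 2 stood well below the other controls, while 4 of 5 ethanol mice were above every control. It had a log2 fold change of 0.27 ± 0.12 (SE) (limma unadjusted p = 0.053, adjusted p = 0.377). It was 0.42 with slides as blocks, 0.16 on slide 1 alone and 0.64 on slide 3 alone, where the low HFD control replicate 2 is the only control. Hadhb had 5.94, 5.65, 5.28, 5.70 and 5.72 in HFD ethanol mice, against 5.64, 5.47, 5.55, 5.53 and 5.48 in HFD control mice. Its controls were close together, HFD ethanol replicate 3 was the lowest of all 10 mice, and the log2 fold change was 0.12 ± 0.11 (SE) (limma adjusted p = 0.625).

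The subunit genes lie head to head on chromosome 5, with RefSeq starts 273 bases apart. Their promoter windows share 228 bases, which are in capitals in the Hadhb window below (chr5:30155003-30155302, plus strand) and which Hadha reads on the other strand. It is shown because 1 stretch of DNA precedes both genes, whose values can then be set side by side.
Hadhb: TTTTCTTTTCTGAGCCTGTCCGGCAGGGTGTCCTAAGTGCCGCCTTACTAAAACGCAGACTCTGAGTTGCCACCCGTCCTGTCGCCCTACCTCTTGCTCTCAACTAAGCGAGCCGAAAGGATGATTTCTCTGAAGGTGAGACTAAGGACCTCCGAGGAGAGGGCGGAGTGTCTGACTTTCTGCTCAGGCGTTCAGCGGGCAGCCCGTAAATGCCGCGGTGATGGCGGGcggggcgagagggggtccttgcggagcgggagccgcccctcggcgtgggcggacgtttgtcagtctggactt
HFD control replicate 2 was the lowest control for both genes, far below the other controls for Hadha and close to them for Hadhb, where it had 5.47 beside 5.48 in HFD control replicate 5. In HFD ethanol mice replicate 1 was the highest and replicate 3 the lowest for both genes. That order is not particular to the pair. Over the 38 members, replicate 1 was the highest ethanol mouse for 19 and replicate 3 the lowest for 28.

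Eci1, the isomerase that moves double bonds of unsaturated chains into place, had 6.37, 6.32, 6.03, 6.33 and 6.19 in HFD ethanol mice, against 6.00, 6.19, 6.10, 6.00 and 6.01 in HFD control mice. HFD ethanol replicate 5 reached the level of the highest control, replicate 3 was within the control range, and the other 3 ethanol mice were above every control. Ethanol minus control came to a log2 difference of 0.19 ± 0.08 (SE) (limma unadjusted p = 0.0492, adjusted p = 0.374). It was 0.07 with quantile normalization, 0.16 with slides as blocks, 0.32 on slide 1 alone and 0.03 on slide 3 alone. Decr1, the dienoyl-CoA reductase for polyunsaturated chains, had a log2 fold change of 0.09 ± 0.11 (SE), with an SD of 0.25 in HFD ethanol mice and 0.05 in HFD control mice. Echs1, the short-chain enoyl-CoA hydratase, had 0.05 ± 0.11 (SE), and -0.09 at its second probe. Hadh, the short-chain hydroxyacyl-CoA dehydrogenase, had -0.05 ± 0.19 (SE), and Acaa2, the mitochondrial thiolase that ends the turn, had 0.03 ± 0.07 (SE). The last 3 intervals all included 0, and the sign of each turned under some settings.

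Electron transfer flavoprotein takes electrons from the acyl-CoA dehydrogenases, and of its subunit genes and the gene of its oxidoreductase 2 had a positive log2 fold change and none passed. Etfb, the beta subunit, had 7.55, 7.68, 7.62, 7.70 and 7.49 in HFD ethanol mice, against 7.14, 7.68, 7.62, 7.35 and 7.30 in HFD control mice. The ethanol mice lay close together in the upper part of the control range and just above it, which made Etfb 1 of the 6 members with a larger SD in the controls. For Etfb the log2 fold change was 0.19 ± 0.11 (SE) (limma adjusted p = 0.458). Etfa, the alpha subunit, had -0.0032 ± 0.09 (SE) at the probe used, and its other probes had -0.05 and -0.01. Etfdh, the oxidoreductase that hands the electrons to ubiquinone, had 0.13 ± 0.11 (SE) (limma adjusted p = 0.607).

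In peroxisomes, import was covered by a pair of ABC half-transporters. Abcd3, also called PMP70, had 7.24, 7.19, 6.80, 7.09 and 7.21 in HFD ethanol mice, against 6.65, 6.70, 7.02, 6.90 and 6.83 in HFD control mice. Of the ethanol mice 4 were above every control, and replicate 3 was below 3 of them. On the log2 scale the difference was 0.29 ± 0.11 (SE) (limma unadjusted p = 0.0219, adjusted p = 0.319), and it was 0.17 with quantile normalization, 0.33 with slides as blocks, 0.23 on slide 1 alone and 0.41 on slide 3 alone. Abcd2, a related transporter for very-long-chain acyl-CoA that liver expresses weakly, had -0.20, -1.47, -3.66, -0.05 and -0.27 in HFD ethanol mice, against -0.73, -0.34, -0.66, -0.68 and -1.22 in HFD control mice. Its probe was the only one of those used with a mean log2 signal under 1. HFD ethanol replicates 1, 4 and 5 were above every control, whereas replicates 2 and 3 were below all of them. The log2 fold change was -0.40 ± 0.61 (SE), with a 95% confidence interval of -1.76 to 0.96, and it was 0.23 without HFD ethanol replicate 3. Pex11a, a peroxin that promotes peroxisome division, had 7.97, 7.38, 6.60, 7.46 and 7.62 in HFD ethanol mice, against 7.08, 7.38, 7.36, 7.05 and 7.09 in HFD control mice. Its ethanol mice spanned 1.37 log2 units and its controls 0.33, with 4 ethanol mice above every control and replicate 3 below every one. It had a log2 fold change of 0.21 ± 0.22 (SE) (limma adjusted p = 0.67).

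Among the 9 genes of peroxisomal oxidation, 7 had a positive log2 fold change (median 0.08), and none stood at an unadjusted p under 0.05. Ehhadh, the bifunctional enzyme for straight and dicarboxylic chains, had 4.83, 4.74, 4.31, 4.40 and 4.71 in HFD ethanol mice, against 4.59, 4.57, 4.19, 4.15 and 4.44 in HFD control mice. Values of the groups were mixed, with 3 ethanol mice above every control and 2 within the control range, and the log2 fold change was 0.21 ± 0.13 (SE) (limma adjusted p = 0.492). Hsd17b4, the multifunctional enzyme for branched chains and bile acid precursors, had 6.88, 6.75, 6.41, 6.80 and 6.82 in HFD ethanol mice, against 6.66, 6.90, 6.69, 6.75 and 6.66 in HFD control mice. The highest value was that of a control and the lowest that of HFD ethanol replicate 3. For Hsd17b4 the log2 fold change was 0.00056 ± 0.10 (SE), with a 95% confidence interval of -0.22 to 0.22.

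Acaa1a and Acaa1b are the close paralogs that encode peroxisomal thiolase in mice, and whether a probe also bound RNA of the other gene was not tested. Acaa1a had 7.59, 7.89, 7.23, 7.65 and 7.42 in HFD ethanol mice, against 7.44, 7.68, 7.70, 7.41 and 7.61 in HFD control mice. The controls lay within the ethanol range, and the log2 fold change was -0.01 ± 0.12 (SE) at the probe used and 0.21 at the other probe. Acaa1b had 7.51, 7.61, 7.26, 7.61 and 7.54 in HFD ethanol mice, against 7.37, 7.46, 7.36, 7.47 and 7.43 in HFD control mice. Here 4 ethanol mice were above all 5 controls and replicate 3 was below them all, which left a log2 fold change of 0.09 ± 0.08 (SE) (limma adjusted p = 0.625) that was -0.04 with quantile normalization. The promoter windows of the paralogs were 47.5% identical in an end-to-end alignment that allows gaps. Windows of unrelated genes were not aligned for comparison, so how alike the windows are cannot be judged from this value.

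Ech1, a dienoyl-CoA isomerase, had 6.00, 6.06, 5.57, 6.10 and 5.96 in HFD ethanol mice, against 5.61, 6.04, 5.65, 5.77 and 5.61 in HFD control mice. The lowest of all 10 mice was HFD ethanol replicate 3, and HFD control replicate 2 came close to the highest ethanol mice. For Ech1 the log2 fold change was 0.20 ± 0.12 (SE) (limma adjusted p = 0.485), and it was -0.15 on slide 3 alone. The other 4 genes of the group had small values. Eci2, a peroxisomal enoyl-CoA isomerase, had 0.16 ± 0.12 (SE), Scp2, the sterol carrier and thiolase, had 0.08 ± 0.07 (SE), and Crot, the carnitine octanoyltransferase for export of shortened chains, had 0.06 ± 0.10 (SE). The peroxisomal dienoyl-CoA reductase gene Decr2 had -0.09 ± 0.09 (SE), with 1 of 5 ethanol mice above the control mean.

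The acyl-CoA thioesterases had the highest median log2 fold change of any role, 0.51 over 5 genes, and several of the widest spreads between mice. Acot1 encodes the cytosolic enzyme, Acot2 the mitochondrial one, and Acot3, Acot4 and Acot8 peroxisomal ones. Acot1 to Acot4 are closely related genes on chromosome 12, and whether their probes also bound RNA of a neighbour was not tested. Acot8 is a separate gene on chromosome 2. It had 4.08, 3.96, 3.77, 3.89 and 3.82 in HFD ethanol mice, against 3.54, 3.67, 3.81, 3.62 and 3.56 in HFD control mice. Only the highest control, replicate 3, reached the ethanol range, and only over the lowest ethanol mouse. For Acot8 the log2 fold change was 0.27 ± 0.08 (SE) (limma unadjusted p = 0.00894, adjusted p = 0.26), with 0.20 under quantile normalization, 0.27 with slides as blocks, 0.30 on slide 1 alone and 0.24 on slide 3 alone.

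Acot1 had 5.45, 5.01, 4.14, 4.44 and 4.28 in HFD ethanol mice, against 3.80, 4.08, 4.82, 3.34 and 4.25 in HFD control mice. Every ethanol mouse was above the control mean, but HFD control replicate 3 exceeded 3 of the 5. Ethanol minus control came to a log2 difference of 0.61 ± 0.31 (SE) (limma unadjusted p = 0.0767, adjusted p = 0.41), and it was 0.54 with quantile normalization, 0.64 with slides as blocks, 0.65 on slide 1 alone and 0.64 on slide 3 alone. Acot3 had 4.52, 2.71, 0.66, 3.21 and 2.40 in HFD ethanol mice, against 0.77, 2.56, 2.87, 1.36 and 2.77 in HFD control mice. The ethanol mice spanned a 14.5-fold range, with replicate 1 above and replicate 3 below all other mice. On the log2 scale the difference was 0.63 ± 0.67 (SE) (limma adjusted p = 0.684), and it was 1.14 without HFD ethanol replicate 3, 0.18 without HFD ethanol replicate 1, 0.31 without HFD control replicate 1 and 0.01 on slide 3 alone. Acot4, whose promoter is printed above, had 2.90, 1.93, 0.92, 2.19 and 1.82 in HFD ethanol mice, against 0.77, 1.60, 2.04, 1.06 and 1.74 in HFD control mice. It ordered the ethanol mice as Acot3 did, from replicate 1 through 4, 2 and 5 to 3. For Acot4 the log2 fold change was 0.51 ± 0.35 (SE) (limma adjusted p = 0.52), and its second probe had 0.53. Without HFD ethanol replicate 1 it was 0.27, without HFD ethanol replicate 3 it was 0.77 and without HFD control replicate 1 it was 0.34. Acot2 had 0.21 ± 0.30 (SE), with 3.21, 1.99, 1.28, 2.10 and 2.45 in HFD ethanol mice, against 2.20, 2.26, 1.83, 1.62 and 2.09 in HFD control mice. Replicate 1 was again the highest ethanol mouse and replicate 3 the lowest, and the value was -0.04 without HFD ethanol replicate 1 and 0.44 without HFD ethanol replicate 3. The promoter windows of Acot1 to Acot4 were between 46.1% and 48.3% identical in pairs, by the same gapped alignment and again with no unrelated windows for comparison.

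**Figure D4:**
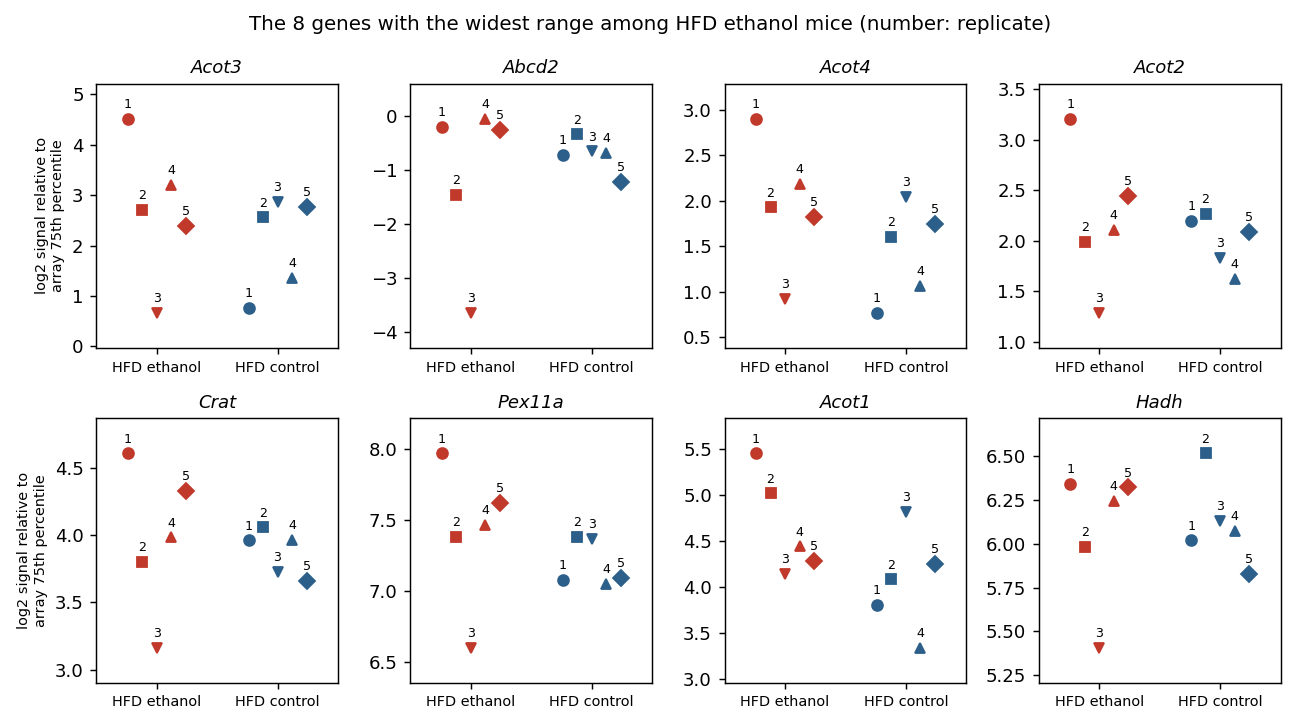
Log2 signal, scaled by array, on the y axes, in each HFD ethanol mouse (left of each panel) and HFD control mouse (right), for the 8 genes with the widest range among HFD ethanol mice. Numbers are replicates and each panel has its own y scale. HFD ethanol replicate 3 is the lowest ethanol mouse in all 8 panels.

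Bdh1, the D-beta-hydroxybutyrate dehydrogenase that interconverts the main ketone bodies, was the only ketogenic member. It had 6.52, 6.14, 5.86, 6.48 and 6.44 in HFD ethanol mice, against 6.41, 6.67, 6.33, 6.41 and 6.29 in HFD control mice. No ethanol mouse was above the highest control, and replicate 3 was the lowest of all 10. The log2 fold change was -0.14 ± 0.14 (SE) (limma adjusted p = 0.672), with -0.15 at a second probe. It was -0.03 without HFD ethanol replicate 3, 0.12 on slide 1 alone and -0.43 on slide 3 alone.

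The steps were then set side by side as the mean log2 signal of each compartment per mouse, relative to the mean of the 10 mice. The 19 mitochondrial genes had means of 0.24, 0.12, -0.25, 0.09 and 0.06 in HFD ethanol replicates 1 to 5, against -0.08, 0.02, -0.03, -0.07 and -0.10 in HFD control replicates 1 to 5. Their group means were 0.05 ± 0.18 in HFD ethanol mice and -0.05 ± 0.05 in HFD control mice (SD, n = 5 each). The 15 peroxisomal genes had 0.40, 0.15, -0.49, 0.23 and 0.08 in HFD ethanol mice, against -0.25, 0.07, 0.05, -0.17 and -0.06 in HFD control mice. Their group means were 0.07 ± 0.34 in HFD ethanol mice and -0.07 ± 0.14 in HFD control mice (SD, n = 5 each). The 9 genes of peroxisomal oxidation had an SD of 0.13 over HFD ethanol mice and the 11 of the mitochondrial spiral 0.18. The import and proliferation genes had 0.72, and the thioesterases, of which Acot1 and Acot2 are not peroxisomal, had 0.67. Single peroxisomal genes outside oxidation differed in this SD. It was 1.52 for Abcd2, whose probe was dim, 1.40 for Acot3, 0.71 for Acot4 and 0.50 for Pex11a, against 0.18 for Abcd3 and 0.12 for Acot8. In both compartments the HFD ethanol mice held the extremes, and the controls lay between them. The count of positive fold changes was 15 of 19 for mitochondrial and 12 of 15 for peroxisomal genes, with medians of 0.12 and 0.16. With quantile normalization the medians were 0.01 and 0.04. The difference between compartments was not tested, because the members were chosen with results known.

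**Figure D5:**
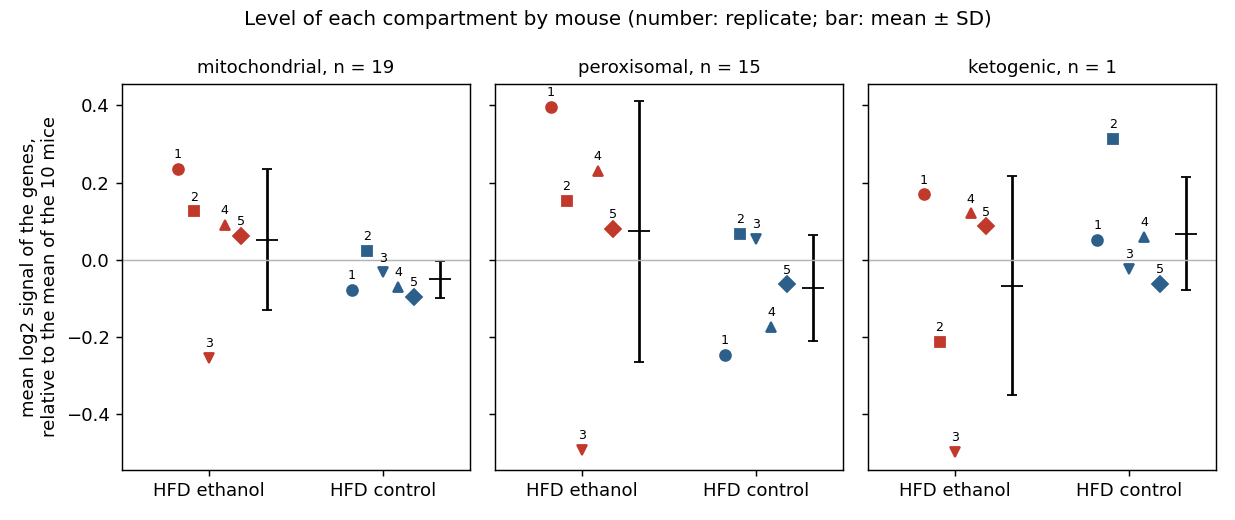
Mean log2 signal of the mitochondrial genes, the peroxisomal genes and the ketogenic gene Bdh1 in each mouse, relative to the mean of the 10 mice, on the y axis, with HFD ethanol mice left and HFD control mice right in each panel. Numbers are replicates, and bars are the mean and SD over 5 mice. HFD ethanol replicate 3 is the lowest mouse in each panel.

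The members varied more between HFD ethanol mice than between HFD control mice. The SD was larger in HFD ethanol mice for 32 of 38 members (84.2%, against 59.3% of all genes), with a median SD of 0.21 in HFD ethanol mice and 0.13 in HFD control mice. Over all genes the median SD was 0.20 in HFD ethanol mice and 0.18 in HFD control mice. Much of this lay in single mice. HFD ethanol replicate 3 was the lowest of the 5 ethanol mice for 28 members (73.7%, against 26.3% of all genes), and replicate 5 was the lowest for 9 of the other 10. Among genes with a mean log2 signal of 5 or more, replicate 3 was the lowest for 32.0%, and for 16 of the 26 members in that range. The highest ethanol mouse was replicate 1 for 19 members (against 20.4% of all genes), replicate 2 for 12 (against 24.1%) and replicate 4 for 7. No member had replicate 3 or 5 as its highest. The widest range was that of Acot3, with 3.86 log2 units, then Abcd2 with 3.61, Acot4 with 1.98, Acot2 with 1.93, Crat with 1.44, Pex11a with 1.37, Acot1 with 1.30 and Hadh with 0.93. These 8 were singled out after their values were seen.

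HFD ethanol replicate 3 shared slide column 1 with HFD ethanol replicate 2 only. No control lay in that column, so its part in the spread cannot be told apart from the mice. Slide column 4 in turn held HFD control replicates 1, 4 and 5 only. Their 75th percentiles were 382.6, 379.5 and 383.3 signal units, and the highest of any other array was 342.7, in HFD ethanol replicate 2. Columns 1 and 4 thus each held 1 group, so column and group cannot be fully told apart. With the slide column as a covariate the members' median log2 fold change was 0.13. Without both arrays of slide column 1, 34 members were higher with a median log2 fold change of 0.15, and 13 stood at an unadjusted p under 0.05. In HFD ethanol replicate 3 the summed level of the 6 hepatocyte markers was 3200 times the 75th percentile, the lowest of the ethanol mice and inside the control range. The 3 measured neutrophil and blood markers summed to 180 times there, the lowest of the ethanol mice, against 171 to 366 times in HFD control mice, and 436 times in HFD ethanol replicate 1, the highest of all mice. The 2 measured pancreatic acinar markers summed to 33.3 times in HFD ethanol replicate 3, against 18.8 to 23.8 times in HFD control mice. Bile duct markers stayed at 0.37 to 0.62 times in HFD ethanol mice and 0.49 to 1.04 times in HFD control mice, and the 1 measured adipocyte marker was at 1.14 to 1.42 times in HFD ethanol mice and 1.00 to 1.33 times in HFD control mice. Stellate cell markers summed to 49.1 to 68.9 times in HFD ethanol mice and 65.8 to 84.7 times in HFD control mice. The sums of endothelial markers (13.7 to 15.0 times in HFD ethanol mice, 14.0 to 17.0 times in HFD control mice), macrophage markers (51.2 to 96.1 in HFD ethanol mice, 55.2 to 86.2 in HFD control mice) and lymphocyte markers (3.97 to 5.58 in HFD ethanol mice, 3.47 to 5.22 in HFD control mice) overlapped. No marker passed the test, and their part in the members' values was not tested.

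The rest of the pathway was read from 8 lists with 85 tested genes. None passed, and 17 were higher and 1 lower at an unadjusted p under 0.05 (against 8.12% and 5.22% of all genes). By any amount 62 were higher (72.9%, against 56.8% of all genes), with a median log2 fold change of 0.07 against 0.03 over all genes. In ketone body metabolism Oxct1, which uses ketone bodies and is known to be low in hepatocytes, had -0.50 ± 0.20 (SE) (limma adjusted p = 0.333). It was the only list gene lower at an unadjusted p under 0.05 in this fit. The log2 fold change of Oxct1 was -0.09 with the slide column as a covariate and -0.22 without slide column 1. The list of 6 was even, with 3 higher and 3 lower.

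Of 17 peroxisome assembly genes 15 were higher (88.2%, against 56.8% of all genes), with a median of 0.08. At an unadjusted p under 0.05, 4 of them were higher, against 8.12% of all genes. Pex16, which takes membrane proteins into new peroxisomes, had 4.51, 4.42, 4.10, 4.35 and 4.38 in HFD ethanol mice, against 3.81, 4.07, 4.09, 3.92 and 4.01 in HFD control mice. The groups did not overlap, and the log2 fold change was 0.37 ± 0.09 (SE) (limma adjusted p = 0.194), with 0.33 with slides as blocks. Pex14, part of the import pore for matrix proteins, had 2.56, 2.62, 2.44, 2.56 and 2.43 in HFD ethanol mice, against 2.23, 2.24, 2.30, 2.30 and 2.39 in HFD control mice. Its groups did not overlap either, with a log2 fold change of 0.23 ± 0.07 (SE) (limma adjusted p = 0.245). Over all genes 1.97% were higher with no overlap. With quantile normalization the log2 fold change was 0.31 for Pex16 and 0.19 for Pex14. Of 15 other peroxisomal lipid enzymes 12 were higher (80.0%, against 56.8% of all genes), with a median of 0.17. They included Hacl1, a lyase of branched and hydroxy fatty acid breakdown, with 0.48 ± 0.17 (SE), and Nudt19, a coenzyme A hydrolase, with 0.22 ± 0.09 (SE).

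Of 11 PPARalpha targets outside oxidation 10 were higher (90.9%, against 56.8% of all genes), with a median of 0.33 against 0.03 over all genes. Cyp4a10, a microsomal omega-hydroxylase that makes dicarboxylic acids for peroxisomes, had 5.13, 5.54, 4.74, 4.90 and 4.49 in HFD ethanol mice, against 4.06, 3.89, 4.47, 3.84 and 4.36 in HFD control mice. Its groups did not overlap, and the log2 fold change was 0.84 ± 0.20 (SE) (limma adjusted p = 0.184), with 0.96 with slides as blocks, 0.80 on slide 1 alone and 1.09 on slide 3 alone. Its neighbour Cyp4a31, a close paralog for which shared binding of probes was not tested, had 0.80 ± 0.20 (SE) (limma adjusted p = 0.199), also with no overlap. The Cyp4a genes of the list had log2 fold changes of 0.60 to 0.95. Its other genes lay between -0.12 and 0.39, several of them near 0. Ppara itself had -0.08 ± 0.12 (SE), with a 95% confidence interval of -0.34 to 0.18. Among its partners Lpin1, a phosphatidate phosphatase that also acts as a coactivator, had 0.67 ± 0.22 (SE) (limma adjusted p = 0.289), with 4 of 5 ethanol mice above every control, and Rxrb, 1 of the retinoid X receptors, had 0.17 ± 0.07 (SE). The list of 8 held 4 higher and 4 lower genes.

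In fatty acid activation outside the members 9 of 10 genes were higher (90.0%, against 56.8% of all genes), with a median of 0.07. The acyl-CoA synthetase Acsl5 had 0.38 ± 0.24 (SE) and the liver transporter Slc27a5 had 0.14 ± 0.15 (SE), both with intervals that included 0. In mitochondrial oxidation outside the members 7 of 14 were higher, with a median of -0.01. The acyl-CoA dehydrogenase family member Acad10 had 0.29 ± 0.11 (SE) and the thioesterase Acot9 had -0.36 ± 0.18 (SE). Of 5 Creb3l3 targets 3 were higher, among them the triglyceride-lowering apolipoprotein Apoa5 with 0.35 ± 0.12 (SE), while Apoc2, the activator of lipoprotein lipase, had -0.33 ± 0.19 (SE). With the slide column as a covariate the log2 fold changes were 0.31 for Acad10, -0.04 for Acot9, 0.20 for Apoa5 and -0.03 for Apoc2. None of these genes passed the test.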

How the data were processed

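Total RNA of 10 livers, 150 ng each, was labelled with Cy3 and hybridised to single-colour Agilent arrays, per the labels' protocols. The authors deposited scanner tables of spot intensity, made with Agilent Feature Extraction 10.7.3.1 per the file headers, and 1 table of log2 values. Differences between arrays in the deposited log2 table matched those of log2 processed intensity scaled to the 75th percentile (r of 1 over 11089 bright probes for each array). Column medians of that table were 0.02, -0.0036, -0.01, -0.0020 and 0.05 in HFD ethanol replicates 1 to 5, and -0.12, 0.08, 0.02, -0.07 and -0.07 in HFD control replicates 1 to 5. How each probe was centred there is unknown, and that centring cancels in differences.

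Control and outlier spots were left out, processed intensity was divided by each array's 75th percentile, a floor of 4 signal units was set, and log2 was taken. Probes that passed as well above background on 4 or more arrays of a group of 5 were kept (31110 of 56605 probes). Names came through accessions from RefSeq for GRCm38.p6, with 32994 probes matched to 1 symbol and 23611 unnamed here. The array was designed on another build, so RefSeq positions are given for promoters only. The kept probe with the highest mean signal stood for a gene, and other kept probes existed for 11 members, with a fold change of opposite sign in 3 (Acaa1a, Crat and Echs1).

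Ethanol was set against control with lmFit and eBayes of limma 3.58.1, run in R 4.3.3, with Benjamini-Hochberg adjustment over 15089 genes and an adjusted p under 0.05 as the threshold. The script was tested on simulated data. The number of arrays limits the precision. Each sample was 1 mouse. Replicate numbers were not taken as pairs. The smallest root mean square difference between arrays was 0.34, so none was treated as a repeat.

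The members and lists were chosen with earlier results of these data known, so no test over a list was made. Values per mouse are given for the 12 members with the smallest p and for Cpt1a, Bdh1, Acadvl, Acadm, Acadl, Hadha, Ehhadh, Acaa1a, Acaa1b, Hsd17b4, Creb3l3 and Abcd2. From each list of other pathway genes the 2 with the smallest p were named, with Ppara added, and some genes taken by this rule are not reported here. Values per mouse for Acot2, Acot3, Acot4, Pex11a and Hadhb were added after they were seen. The list of PPARalpha targets had 1 gene without a probe. The alternatives changed the scaling, the background correction, the floor, the filter or the probe rule, or used the deposited log2 values, slide and column terms, other variance models, a replicate block and leaving out each array. Normexp used median spot signals.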

Additional observations from a re-analysis of the deposited data

Results flagged for a closer look

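In 5 of 114 groups of 5 mice tested, the lowest or highest value stood apart, with a gap to the nearest other mouse of more than 0.71 of the group's range. Chance alone gives such a gap in about 5% of groups, and 5 of 114 is near that. HFD ethanol replicate 3 was low in 3 of the 5. Its log2 signal was 7.26 for Acaa1b, where the nearest ethanol mouse had 7.51, and 5.57 for Ech1, where the nearest had 5.96. It was 6.41 for Hsd17b4, with 6.75 in the nearest ethanol mouse. HFD ethanol replicate 2 was high for Acad10 at 2.14, with the nearest ethanol mouse at 1.76. HFD control replicate 2 was low for Hadha at 1.39, with the nearest control at 1.78.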

How the results depend on the processing

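No member passed the threshold under any of the 26 alternatives, and the smallest adjusted p was 0.111, with array weights. The sign of 17 of the 38 members held under all of them, each higher in HFD ethanol mice, and 21 turned under at least 1. The number of genes past the threshold, 3 as reported, was 15 with array weights, 12 with the slide as a random block, 9 with eBayes trend and robust, 7 with normexp, 6 with no filter on dim probes, and 0 with the slide as a fixed block, the slide column as a covariate, the replicate block or within slide 1 or slide 3. It ran from 0 to 7 when single arrays were left out. Members at an unadjusted p under 0.05, 4 as reported, were 9 with array weights, 13 without slide column 1, 2 within slide 1, 1 within slide 3 and 1 with the slide as a fixed block, and 2 to 12 with single arrays left out, where 12 was without HFD ethanol replicate 3 and 2 without HFD ethanol replicate 1 or HFD control replicate 1. Same-numbered mice of the groups share only a number, with correlations of their deviations from the group means of 0.32, 0.15, 0.31, 0.06 and -0.11, and 3 of 10 arrays correlated best with their own number. With the replicate block 3 members stood at an unadjusted p under 0.05, where Abcd3 and Eci1 no longer did and Ehhadh did. Of the other named genes, Rxrb left and Acot9 and Apoc2 joined, the last 2 lower in HFD ethanol mice. The block changed no other call of a named gene. Each replicate number has 1 array per group, so this block alters p-values but no log2 fold change. The 30 members higher and the median of 0.12 were therefore fixed in advance. The mitochondrial median was -0.0246 on slide 3 alone.

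Log2 fold changes of turned sign were the following, and the cause was not tested. With quantile normalization they were -0.0428 for Acaa1b, -0.057 for Acaa2, -0.0429 for Acadl, -0.0489 for Crot, -0.0362 for Decr1, -0.0595 for Echs1 and -0.14 for Hsd17b4. With normexp they were -0.00836 for Acaa2, -0.00664 for Crat, 0.0159 for Etfa and -0.00303 for Hsd17b4. With the mean over probes they were 0.0968 for Acaa1a and -0.0222 for Echs1. With the deposited log2 values it was -0.0135 for Hsd17b4. With array weights they were 0.0386 for Acaa1a, 0.0304 for Acadm, 0.0595 for Etfa and 0.0981 for Hadh. With slides as fixed blocks they were -0.0501 for Acadl and -0.0594 for Hsd17b4. With slides as random blocks it was 0.00545 for Etfa. With the slide column as a covariate they were 0.39 for Abcd2, -0.0419 for Acaa2, 0.0668 for Cpt1a, 0.0184 for Hadh and -0.0756 for Slc27a5. Without slide column 1 they were 0.56 for Abcd2, -0.0329 for Acaa2, 0.057 for Bdh1, 0.0162 for Cpt1a, 0.02 for Etfa and 0.19 for Hadh. On slide 1 alone they were 0.90 for Abcd2, 0.14 for Acaa1a, -0.00192 for Acadl, 0.25 for Acadm, 0.12 for Bdh1, 0.00862 for Decr2, 0.18 for Etfa and 0.30 for Hadh. On slide 3 alone they were -0.0903 for Acadl, -0.0634 for Acadvl, -0.0314 for Acot2, 0.0799 for Cpt1a, -0.0246 for Cpt2, -0.0828 for Crat, -0.0681 for Crot, -0.15 for Ech1, -0.0278 for Echs1, -0.0964 for Etfb, -0.19 for Hsd17b4 and -0.13 for Slc27a5. With single arrays left out the range was -0.67 to 0.23 for Abcd2, -0.0964 to 0.07 for Acaa1a, -0.0187 to 0.054 for Acaa2, -0.0251 to 0.15 for Acadl, -0.13 to 0.0636 for Acadm, -0.0441 to 0.44 for Acot2, -0.13 to 0.0456 for Cpt1a, -0.055 to 0.31 for Crat, -0.00186 to 0.13 for Echs1, -0.041 to 0.0413 for Etfa, -0.12 to 0.11 for Hadh and -0.0369 to 0.0814 for Hsd17b4. Within slide 1 there is 1 HFD ethanol array and within slide 3 there is 1 HFD control array, each assumed to vary like the others. Every member was well above background on all arrays, but normexp still moved Abcd2 from -0.40 to -0.17, Cpt2 from 0.16 to 0.0692 and Slc25a20 from 0.13 to 0.0553.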
